A study of Mus musculus with 28 samples.

Results

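Expression of 7 genes was followed in a mouse cell line: the 6 genes that encode the chains of the fibrillar collagens I, III and V (Col1a1, Col1a2, Col3a1, Col5a1, Col5a2 and Col5a3) and Serpinh1, which encodes the collagen chaperone HSP47. The genes were taken by symbol from the table of raw read counts, where all 7 of them were found among 54429 listed genes, and all 7 had enough counts to be tested in all 15 comparisons described below. The study asked how low oxygen affects the differentiation of cranial neural crest cells, which form most of the facial skeleton in the embryo. RNA sequencing was done on O9-1 cells, an established line of mouse cranial neural crest cells, in 28 libraries that form 8 groups.

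At 21% O2 (normoxic) each group held 4 libraries, and at 0.5% O2 (hypoxic) each group held 3. Proliferating cells were kept at either oxygen level in STO-conditioned DMEM with 15% fetal calf serum (FCS), 25 ng/ml bFGF and 5 ng/ml LIF. Osteoblast cultures spent 10 days in alpha-MEM with 10% FCS, 10 mM beta-glycerophosphate, 0.1 µM dexamethasone and 100 ng/ml BMP-2. Chondrocyte cultures spent 3 days in that osteoblast medium. They then spent 7 days as micromasses on matrigel-coated plastic with 5% FCS, insulin, transferrin and selenium, 0.1 µM dexamethasone, 10 ng/ml TGF-beta3 and 50 ng/ml BMP-2. Smooth muscle cultures spent 3 days in DMEM with 10% FCS. All groups come from the same line, so they share its genetic background, and the labels do not say whether libraries of a group came from separate cultures. The p-values below therefore measure only the spread between these libraries, which may be technical.

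Collagen I, III and V chains are made as procollagen in the endoplasmic reticulum, where prolines and lysines are hydroxylated and the chains wind into triple helices. Serpinh1 binds the folded procollagen helix and is needed for its orderly exit from the endoplasmic reticulum. Outside the cell the trimmed molecules form mixed fibrils, in which collagen I is the bulk of bone, tendon and dermis, collagen III is abundant in distensible tissue such as vessel wall, and collagen V sits inside the collagen I fibril and limits its width. Cartilage fibrils are built mainly from collagens II and XI instead.

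The reference table of promoters held an entry for 5 of the 7 genes, and 4 of these are printed, because in proliferating cells they run from the largest rise under hypoxia (Col5a3) over a smaller one (Col5a1) to none called (Serpinh1 and Col3a1). They were searched on both strands for the core letters bound by hypoxia-inducible factors, ACGTG and GCGTG, and for CCAAT and TATAAA. Each window is the 250 bases before the RefSeq start of the gene (build GRCm38.p6), written 5′ to 3′ on the strand of the gene in lower case, with ACGTG or GCGTG on either strand in capitals. The Col5a3 window is at chr9:20815068-20815317 (minus strand), that of Col5a1 at chr2:27886175-27886424 (plus strand), that of Serpinh1 at chr7:99353240-99353489 (minus strand) and that of Col3a1 at chr1:45311288-45311537 (plus strand).
Col5a3: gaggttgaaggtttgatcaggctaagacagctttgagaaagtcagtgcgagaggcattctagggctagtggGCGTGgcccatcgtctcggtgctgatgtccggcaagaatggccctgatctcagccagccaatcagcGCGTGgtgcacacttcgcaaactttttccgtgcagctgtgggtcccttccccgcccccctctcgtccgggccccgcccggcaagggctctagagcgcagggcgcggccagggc
Col5a1: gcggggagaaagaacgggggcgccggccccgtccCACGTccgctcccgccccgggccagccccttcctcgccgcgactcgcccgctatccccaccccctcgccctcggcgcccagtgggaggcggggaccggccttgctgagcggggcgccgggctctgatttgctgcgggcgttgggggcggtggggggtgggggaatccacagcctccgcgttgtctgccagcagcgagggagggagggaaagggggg
Serpinh1: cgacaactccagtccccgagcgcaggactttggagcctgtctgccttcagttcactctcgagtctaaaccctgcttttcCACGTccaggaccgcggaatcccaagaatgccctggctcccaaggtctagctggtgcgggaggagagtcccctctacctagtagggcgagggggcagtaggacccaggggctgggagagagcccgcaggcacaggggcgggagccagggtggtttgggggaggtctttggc
Col3a1: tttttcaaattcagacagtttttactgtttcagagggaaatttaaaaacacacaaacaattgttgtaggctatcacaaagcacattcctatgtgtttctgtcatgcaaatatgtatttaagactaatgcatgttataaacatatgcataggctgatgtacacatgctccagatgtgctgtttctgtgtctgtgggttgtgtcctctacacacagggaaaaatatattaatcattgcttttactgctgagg

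Col5a3 held GCGTG at 2 places, whose first bases lie 179 and 113 bases before the start, and a CCAAT 122 bases before it. Col5a1 held 1 ACGTG, 216 bases before the start, and Serpinh1 held 1, 171 bases before the start, both on the other strand. In Col1a2, whose window overlaps an annotated exon and is not printed, there were 2 ACGTG matches, 131 and 87 bases before the start. The Col3a1 window held neither core and had a GC content of 35.2%, against 62.0% to 76.4% in the other 4, and its TATAAA lay 117 bases before the start. These short words are common: of 32851 RefSeq windows of the same length, 38.6% held ACGTG or GCGTG, 33.85% CCAAT and 12.37% TATAAA. A match is a description of the letters and not a binding site. The genes themselves lie on chromosomes 11 (Col1a1, 94936224 to 94953042), 6 (Col1a2), 1 (Col3a1 and Col5a2), 2 (Col5a1), 9 (Col5a3) and 7 (Serpinh1) of build mm10.

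The counts assigned to genes ranged from 19869271 to 64693346 per library. Levels below are CPM, counts per 1000000 assigned counts after scaling with TMM (the trimmed mean of M values). Of the groups, 1 stood apart: in the 3 hypoxic smooth muscle libraries mitochondrial ribosomal RNA took 11.6% to 13.3% of the counts, against at most 0.0889% in the other 25, and their TMM factors were 0.505 to 0.533 against 0.901 to 1.29. Also apart was replicate 4 of the normoxic osteoblast group, whose log2 CPM over 16540 genes correlated with replicates 1 to 3 at 0.9755 or less, while those correlated with each other at 0.9907 or more. Replicate 4 also fell below the other 3 by a smaller margin in the normoxic proliferating (0.9891 or less against 0.9916 or more) and normoxic smooth muscle groups (0.9887 or less against 0.9891 or more), and not in the normoxic chondrocyte group. Against the labels, the summed level of 6 smooth muscle markers was 95.1 to 119 CPM in the hypoxic smooth muscle libraries, where the proliferating groups had 94.3 to 195, and 3580 to 4040 CPM in the normoxic ones. Smooth muscle markers were as high in normoxic osteoblast libraries, at 3650 to 5180 CPM. The bone matrix marker Ibsp averaged 1.13 CPM in normoxic osteoblast, 69.6 in hypoxic osteoblast and 1170 in normoxic chondrocyte libraries. Of the other cell types the cultures could hold, summed markers reached at most 59.6 CPM for adipocytes, 58.4 for tendon fibroblasts, 7.62 for endothelium, 2.6 for macrophages, 11.3 for skeletal muscle and 103 for neurons and glia in any library. The group names below are therefore those of the culture condition. These are bulk libraries, in which fewer cells of a type and less RNA per cell cannot be told apart.

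All 7 genes had their highest group level in the chondrocyte condition, at 1 of the oxygen levels. Between the highest and the lowest group mean the level of Col1a1 differed 147-fold, that of Col3a1 100.0-fold, Col5a1 57.2-fold, Col5a2 56.2-fold, Col1a2 37.3-fold and Col5a3 29.1-fold, while Serpinh1 differed 5.71-fold. Hypoxic smooth muscle had the lowest mean of 6 of the genes, and normoxic proliferating cells had that of Col5a3. Together the 6 collagen chains took 0.663% ± 0.0103 (SD, n = 4) of all counts in normoxic proliferating cells, 9.62% ± 0.546 in normoxic chondrocyte, 2.71% ± 0.352 in normoxic osteoblast and 2.01% ± 0.228 in normoxic smooth muscle libraries. Under hypoxia the shares were 0.953% ± 0.0217 (SD, n = 3), 10.1% ± 0.672, 3.10% ± 0.146 and 0.0925% ± 0.0125 in the same order. These are shares of unscaled counts, so the low TMM factors of the hypoxic smooth muscle libraries make their share differ more from the other groups than the CPM below do. The chondrocyte cultures gave the largest share at either oxygen level.

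**Figure D1:**
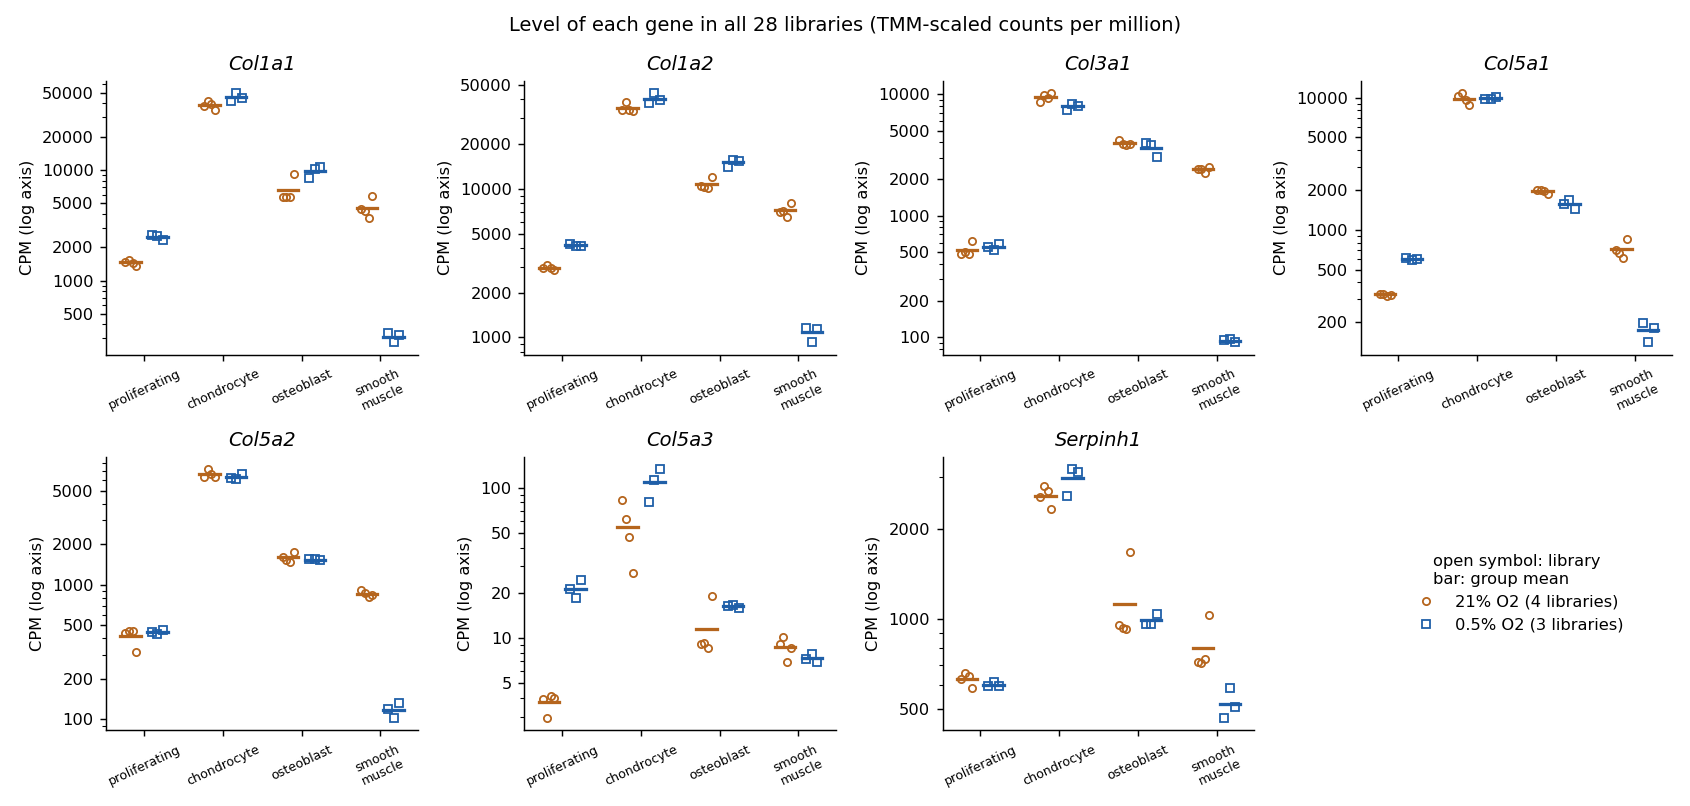
Each panel plots 1 gene, with its CPM (TMM-scaled) on a log axis against the 4 culture conditions. Open circles are the libraries at 21% O2, open squares those at 0.5% O2, and bars the group means. The chondrocyte libraries lie at the top of every panel, and the mean of the hypoxic smooth muscle libraries is the lowest in all but the Col5a3 panel.

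Col1a1 and Col1a2 encode the alpha1 and alpha2 chains of collagen I, the most abundant protein of bone. In normoxic proliferating libraries Col1a1 stood at 1472, 1547, 1452 and 1361 CPM, and in hypoxic ones at 2558, 2518 and 2309 CPM. In the chondrocyte condition it reached 38010, 42250, 39410 and 34990 CPM at 21% O2 and 42550, 49280 and 45250 CPM at 0.5% O2. The 2 oxygen levels did not overlap in either condition, and the chondrocyte libraries exceeded all others. Normoxic osteoblast libraries had 5658, 5671, 5660 and 9281 CPM, with replicate 4 apart, and the hypoxic ones had 8406, 10260 and 10620. In normoxic smooth muscle libraries the values were 4428, 4293, 3665 and 5868 CPM, and in hypoxic ones 334.5, 276.7 and 321.9 CPM, the lowest of all 28 libraries. Col1a2 followed the same order of groups, from 1081 ± 131 CPM (SD, n = 3) in hypoxic smooth muscle to 40320 ± 3000 in hypoxic chondrocyte libraries. Of the 7 pairs of neighbours in that order, only the 2 chondrocyte groups overlapped.

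Col3a1 encodes the single chain of collagen III. It was measured at 481.4, 502.7, 483.3 and 612.5 CPM in normoxic proliferating libraries and at 552.3, 522.4 and 579.9 CPM in hypoxic ones, which overlap. In normoxic smooth muscle libraries it reached 2421, 2438, 2251 and 2520 CPM. The hypoxic smooth muscle libraries had 94.45, 95.88 and 90.99 CPM, so the 2 groups were far apart with a small spread in each. Its chondrocyte level was higher in normoxic (9419 ± 698 CPM, SD, n = 4) than in hypoxic libraries (7924 ± 471, n = 3), and the libraries did not overlap, in the opposite order to Col1a1. Hypoxic and normoxic osteoblast libraries overlapped.

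Col5a1 and Col5a2 encode the main chains of collagen V, and Col5a3 encodes another chain that is found in fewer tissues. Col5a1 was tightly held in proliferating cells, with 329.3, 328.9, 317.5 and 324.1 CPM at 21% O2 and 609.4, 591.3 and 599.8 CPM at 0.5% O2. The groups did not overlap. Col5a1 stood at 9830 ± 838 CPM (n = 4) in normoxic and 9922 ± 216 CPM (n = 3) in hypoxic chondrocyte libraries, which overlapped. Col5a2 ranged from 102.6 CPM in a hypoxic smooth muscle library to 7202 CPM in a normoxic chondrocyte library, and hypoxic and normoxic libraries overlapped in all conditions but smooth muscle.

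Col5a3 was rare throughout, at 22365 counts over all libraries against 2537147 for Col5a1. Its normoxic proliferating libraries had 3.928, 2.945, 4.11 and 3.992 CPM, and the hypoxic ones 21.2, 18.54 and 24.21 CPM. In the chondrocyte condition Col5a3 spread widely, at 83.41, 62.31, 46.8 and 27.04 CPM in normoxic and 80.78, 113.3 and 133.1 CPM in hypoxic libraries. The proliferating groups were well apart, whereas the chondrocyte groups overlapped. Alone among the 7 genes, its second highest culture condition under hypoxia was the proliferating one (21.32 ± 2.84 CPM, SD, n = 3), above hypoxic osteoblast (16.23 ± 0.343), and those libraries did not overlap.

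Serpinh1 spanned a narrow range. Proliferating libraries had 630.3, 659, 643.6 and 586.9 CPM at 21% O2 and 597.5, 614.3 and 594.6 CPM at 0.5% O2. Chondrocyte libraries had 2565, 2792, 2697 and 2344 CPM at 21% O2 and 2599, 3189 and 3123 CPM at 0.5% O2. Oxygen levels overlapped in both conditions. In hypoxic smooth muscle libraries, where all chains but Col5a3 were lowest, it stood at 465.5, 588.4 and 506.7 CPM, close to the proliferating level.

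To compare levels between genes, counts were divided by the length of all annotated exons of each gene (GENCODE M21). This length counts every annotated exon, and so understates a gene with long exons that the cells do not use. On this per-length scale Col1a1 took 51.1% ± 1.07 (SD, n = 4) of the 6 chains in normoxic chondrocyte and 54.1% ± 0.684 (n = 3) in hypoxic chondrocyte libraries, but 37.4% ± 0.729 in normoxic proliferating and 26.7% ± 0.444 in hypoxic smooth muscle libraries. Col1a2 was the largest part in hypoxic smooth muscle, at 48.9% ± 0.64, and the smaller collagen I chain in normoxic chondrocyte libraries, at 24.4% ± 0.516. The gap between these chains depends on the lengths used, 12426 bases for Col1a2 and 6563 for Col1a1. In CPM, without division by length, the normoxic chondrocyte means were closer, at 34910 for Col1a2 and 38660 for Col1a1. The share of Col3a1 was 15.3% ± 1.89 in normoxic osteoblast and 14.6% ± 1.20 in normoxic smooth muscle libraries, against 5.43% ± 0.747 in hypoxic smooth muscle. Col5a3 held between 0.0618% and 0.617%, the latter in hypoxic smooth muscle.

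**Figure D2:**
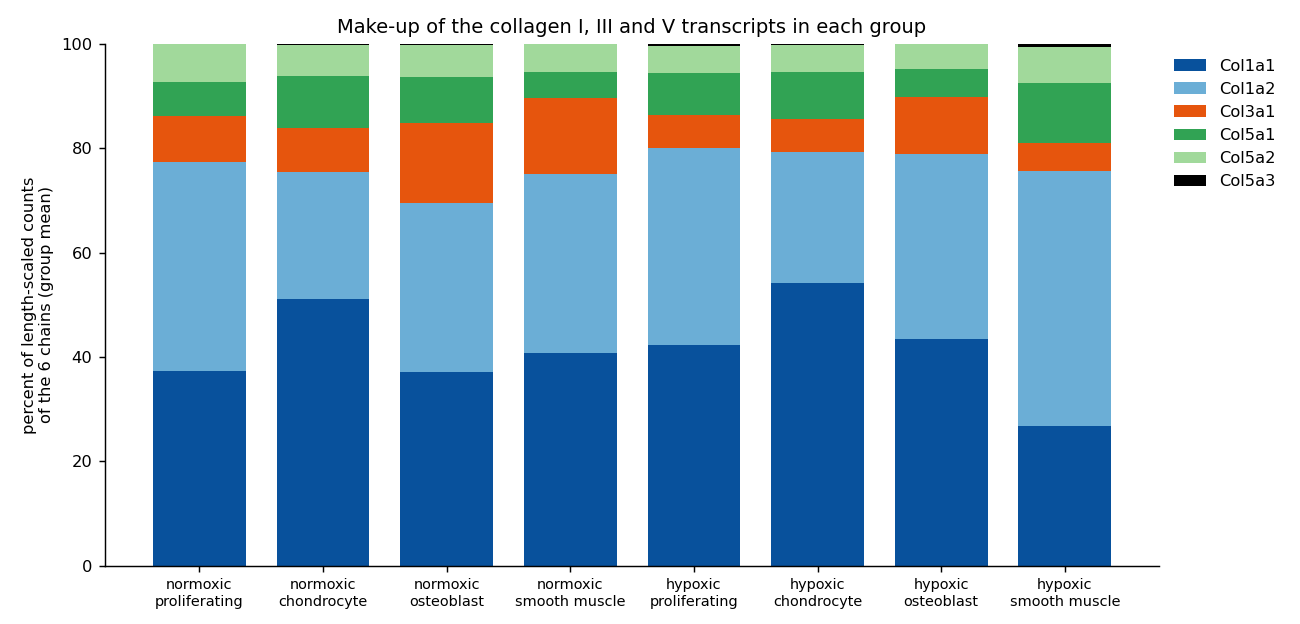
Stacked bars give the mean percent of length-scaled counts of each of the 6 collagen chains in the 8 groups. The dark blue Col1a1 part is 54.1% in hypoxic chondrocyte and 26.7% in hypoxic smooth muscle libraries, and the orange Col3a1 part is widest in normoxic osteoblast libraries, at 15.3%.

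Differentiation at 21% O2 was compared with proliferation first, in 3 comparisons that share the same proliferating libraries. The genes of collagen I, III and V rose in all of them, most in the chondrocyte condition. In every comparison the log2 fold change and its SE come from the edgeR quasi-likelihood test, with p-values adjusted by Benjamini-Hochberg over all genes tested, and a gene was called under 0.05. In chondrocyte libraries all 7 genes rose: Col5a1 by 4.99 ± 0.09 (log2 ± SE, 31.8-fold), Col1a1 by 4.8 ± 0.09, Col3a1 by 4.25 ± 0.11, Col5a2 by 4.08 ± 0.12, Col5a3 by 3.98 ± 0.36, Col1a2 by 3.64 ± 0.08 and Serpinh1 by 2.12 ± 0.07. The largest of these adjusted p-values was 7.76e-06, for Col5a3. Calls were frequent in general, since 37.7% of all tested genes were called higher and 37.2% lower, so the size places the 7 genes better than the call. Only 3.37% of tested genes had a larger log2 fold change than Col5a1, and 9.51% a larger one than Serpinh1. Summed chondrocyte markers were higher as well, at 3110 to 9260 CPM against 104 to 143 in proliferating libraries, where Matn1 and Cnmd had 0 counts. In chondrocyte replicates 1 to 4 the sums were 3110, 8780, 9260 and 4090 CPM, in another order than Col1a1. In the same libraries smooth muscle markers were 2080 to 2540 against 94.3 to 103 CPM, osteoblast markers 1110 to 2600 against 89.0 to 92.2 CPM and neural crest markers 227 to 244 against 2390 to 2630 CPM. Neuron and glia markers (54.0 to 85.4 against 3.5 to 8.62 CPM) and tendon markers (42.9 to 52.8 against 16.8 to 24.2 CPM) were higher too. The part of these markers in the result was not tested.

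In normoxic osteoblast libraries all 7 genes rose as well, led by Col3a1 (2.98 ± 0.10, 7.86-fold) and Col5a1 (2.65 ± 0.06), and least for Serpinh1 (0.89 ± 0.19, adjusted p = 0.00173 by edgeR's quasi-likelihood test). Without normoxic osteoblast replicate 4 Serpinh1 stood at 0.59 and was still called. The background was 40.9% called higher and 37.8% called lower. All 7 rose in normoxic smooth muscle libraries too, where Col3a1 again led (2.26 ± 0.08, 4.8-fold) and Serpinh1 was last (0.40 ± 0.11, adjusted p = 0.00546 by edgeR). Without normoxic smooth muscle replicate 4 (1034 CPM, against 711.9 to 734.9 in the others) Serpinh1 stood at 0.25 and was still called. Here 40.8% of tested genes were called higher and 38.9% lower. Smooth muscle markers stood at 3650 to 5180 CPM in the osteoblast and 3580 to 4040 CPM in the smooth muscle libraries against 94.3 to 103 in proliferating ones. In the same order, neural crest markers were 278 to 311 and 836 to 1020 against 2390 to 2630 CPM. Tendon markers were 29.2 to 45.8 and 43.2 to 50.6 against 16.8 to 24.2 CPM. Hypoxia response genes were 1030 to 1190 and 559 to 601 against 1920 to 2050 CPM. In osteoblast libraries osteoblast markers were 65.3 to 74.2 CPM in replicates 1 to 3 and 147 in replicate 4, against 89.0 to 92.2. Adipocyte markers there were 7.77 to 11.6 against 3.91 to 4.25 CPM. The part of these lists in these results was not tested. Direct comparison of the 2 skeletal conditions put all 7 genes lower in normoxic osteoblast than in normoxic chondrocyte libraries, from Serpinh1 (-1.19 ± 0.19) to Col1a1 (-2.54 ± 0.18), against 31.1% called higher and 28.6% called lower among all genes. In the summed chondrocyte markers, normoxic osteoblast replicate 4 had 1400 CPM and the other 3 libraries 182 to 197 CPM, and that replicate also had the highest level of Col1a1, Col1a2, Col5a2, Col5a3 and Serpinh1 in its group.

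**Figure D3:**
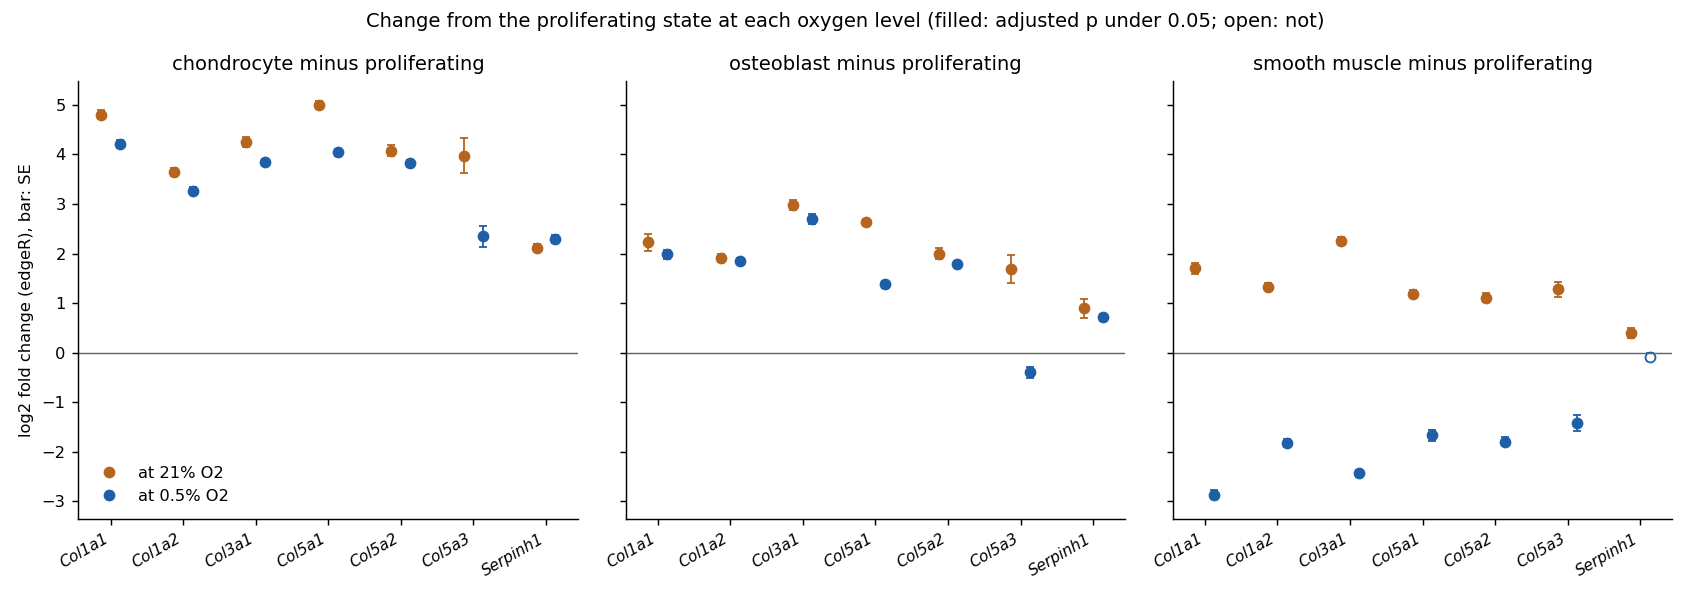
Points show the log2 fold change of each gene from proliferating to chondrocyte, osteoblast and smooth muscle conditions (panels), at 21% O2 in brown and 0.5% O2 in blue, and bars the SE. All brown points lie above 0, while in the smooth muscle panel 6 blue points are called below 0 and Serpinh1 is open, at -0.09.

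The same 3 steps were then compared at 0.5% O2, against the hypoxic proliferating libraries that all 3 share. In chondrocyte libraries all 7 genes rose, Col1a1 by 4.21 ± 0.08 (18.5-fold), Col5a1 by 4.04 ± 0.06, Col3a1 by 3.84 ± 0.07, Col5a2 by 3.82 ± 0.07, Col1a2 by 3.27 ± 0.07, Col5a3 by 2.35 ± 0.21 and Serpinh1 by 2.29 ± 0.08. Among all genes 34.9% were called higher and 34.6% lower. Summed chondrocyte markers were 895 to 1360 CPM in these libraries, below the 3110 to 9260 CPM of the normoxic chondrocyte libraries. Against hypoxic proliferating libraries, smooth muscle markers were 1890 to 2270 against 191 to 195 CPM, osteoblast markers 786 to 1270 against 64.9 to 67.3 CPM and neural crest markers 239 to 265 against 2810 to 3040 CPM. Neuron and glia markers were 72.1 to 103 against 14.8 to 17.6 CPM and tendon markers 42.9 to 58.4 against 14.0 to 18.0 CPM, and the part of these lists was not tested. In hypoxic osteoblast libraries 6 of the 7 genes rose, from Serpinh1 (0.71 ± 0.06) to Col3a1 (2.70 ± 0.09), and Col5a3 fell (-0.40 ± 0.11, adjusted p = 0.00593 by edgeR), with 36.2% of genes called higher and 35.1% lower. In the same libraries smooth muscle markers were 2210 to 2490 against 191 to 195 CPM, adipocyte markers 54.7 to 59.6 against 3.94 to 4.89 CPM, osteoblast markers 374 to 403 against 64.9 to 67.3 CPM, chondrocyte markers 598 to 640 against 206 to 220 CPM and neural crest markers 386 to 433 against 2810 to 3040 CPM, and their part in the result was not tested. The call on Col5a3 was lost in a single fit of all 28 libraries (adjusted p = 0.274 by edgeR). All 7 were lower in hypoxic osteoblast than in hypoxic chondrocyte libraries, from Col3a1 (-1.15 ± 0.11) to Col5a3 (-2.75 ± 0.16), where 29% of genes were called higher and 28.6% lower.

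In hypoxic smooth muscle libraries the direction was the opposite, and all 6 collagen chains fell below the proliferating level. Col1a1 fell by 2.86 on the log2 scale (SE 0.09, 7.28-fold lower), Col3a1 by 2.44, Col1a2 by 1.83, Col5a2 by 1.8, Col5a1 by 1.67 and Col5a3 by 1.41, with adjusted p-values of at most 1.2e-05 (edgeR's quasi-likelihood test). Serpinh1 did not pass, at -0.09 ± 0.09 (adjusted p = 0.365 by edgeR). Among all genes 33.8% were called higher and 36.2% lower. In the same libraries chondrocyte markers were 29.1 to 36.3 against 206 to 220 CPM, smooth muscle markers 95.1 to 119 against 191 to 195 CPM and hypoxia response genes 35800 to 38600 against 10500 to 11300 CPM. Mitochondrial ribosomal RNA took 11.6% to 13.3% of counts against at most 0.0889%, and the part of these in the fall was not tested. Serpinh1 was called lower without hypoxic smooth muscle replicate 2 (-0.20, adjusted p = 0.0173 by edgeR) and with no filter on low counts (-0.19, adjusted p = 0.0463 by edgeR). With library size alone as the scale it was called too, at -1.37 (adjusted p = 1.83e-08 by edgeR), but the median of all genes then moved from -0.07 to -1.35 as well. The 6 chains stood at -2.69 (Col5a3) to -4.14 (Col1a1) on that scale.

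Oxygen was compared within each culture condition next. Proliferating cells had more RNA of some collagen genes at 0.5% O2, and Col5a3 rose most. Its log2 fold change was 2.59 ± 0.14 (6.01-fold), followed by Col5a1 at 0.94 ± 0.04 (1.92-fold), Col1a1 at 0.81 ± 0.05 (1.76-fold) and Col1a2 at 0.56 ± 0.04 (1.47-fold), with adjusted p-values of at most 3.99e-08 (edgeR's quasi-likelihood test). Col3a1 (0.14 ± 0.08), Col5a2 (0.16 ± 0.10) and Serpinh1 (-0.01 ± 0.05) were not called. Thus 4 of the 7 genes rose and 0 fell, against 33.1% called higher and 32.3% called lower among all genes. Without normoxic proliferating replicate 4, whose Col3a1 was the highest of its group, Col3a1 was called higher at 0.22 (adjusted p = 1.63e-05 by edgeR). Col5a2 ranged from 0.04 to 0.21 with single libraries left out and was not called in any of these fits. The summed level of 10 hypoxia response genes, such as Vegfa and Slc2a1, was 10500 to 11300 CPM in these hypoxic libraries and 1920 to 2050 in the normoxic ones. Smooth muscle markers (191 to 195 against 94.3 to 103 CPM), chondrocyte markers (206 to 220 against 104 to 143 CPM) and neuron and glia markers (14.8 to 17.6 against 3.5 to 8.62 CPM) were higher under hypoxia as well, without overlap. So were neural crest markers (2810 to 3040 against 2390 to 2630 CPM), while osteoblast markers were lower without overlap (64.9 to 67.3 against 89.0 to 92.2 CPM). The part of these lists in the result was not tested.

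**Figure D4:**
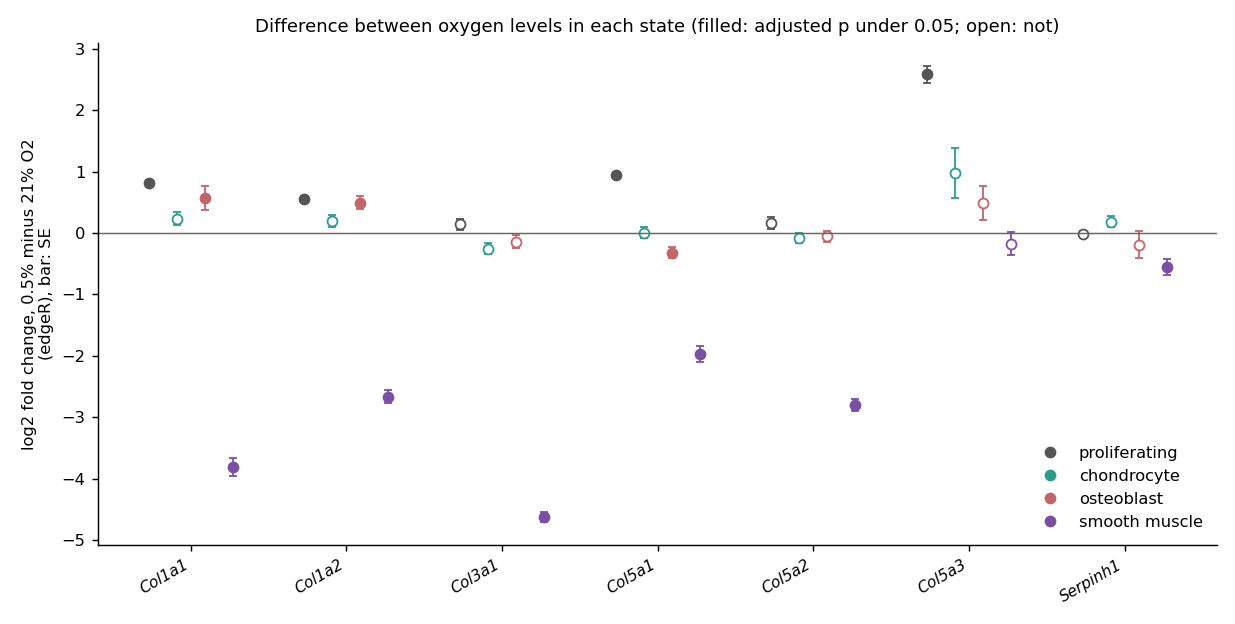
Points give the log2 fold change between 0.5% and 21% O2 for each gene, coloured by culture condition, with SE bars. Filled points passed an adjusted p of 0.05. Proliferating Col5a3 is the highest point (2.59), smooth muscle Col3a1 the lowest (-4.62), and all chondrocyte points are open.

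In the chondrocyte condition 0 of the 7 genes were called between oxygen levels by edgeR's quasi-likelihood test, where 10.4% of all genes were called higher and 11.8% lower. At an unadjusted p under 0.05 there were 2, Col1a1 (0.23 ± 0.10, adjusted p = 0.123 by edgeR) and Col3a1 (-0.26 ± 0.09, adjusted p = 0.064 by edgeR). DESeq2 called 3 (Col1a1, Col1a2 and Col3a1) and limma-voom called 1 (Col3a1), as did edgeR with library size alone and with no filter. Without normoxic chondrocyte replicate 1, Col3a1 was called by edgeR as well (-0.30, adjusted p = 0.0374). The largest estimate, Col5a3 at 0.98 ± 0.41, was also the least precise, and was called in a single fit of all 28 libraries (0.99, adjusted p = 0.0116 by edgeR), as was Col3a1. Summed chondrocyte markers did not overlap between the same libraries, at 3110 to 9260 CPM at 21% O2 and 895 to 1360 CPM at 0.5% O2. Hypoxia response genes did not overlap either, at 2090 to 3150 CPM at 21% O2 and 7230 to 7760 CPM at 0.5% O2. The part of these lists in these values was not tested.

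In the osteoblast condition, collagen I genes were higher and Col5a1 lower at 0.5% O2. Col1a1 rose by 0.57 ± 0.20 (1.48-fold, adjusted p = 0.0339 by edgeR) and Col1a2 by 0.49 ± 0.11 (1.41-fold, adjusted p = 0.00387 by edgeR), while Col5a1 fell (-0.32 ± 0.09, adjusted p = 0.0145 by edgeR). The other 4 genes were not called, and 27% of all genes were called higher and 27.3% lower. The Col1a1 call was lost when normoxic osteoblast replicate 1, 2 or 3 or hypoxic osteoblast replicate 2 or 3 was left out, with adjusted p-values of 0.0841 to 0.117 by edgeR, and with library size alone as the scale (0.41, adjusted p = 0.11 by edgeR). It was firmer without normoxic osteoblast replicate 4 (0.78, adjusted p = 2.34e-06 by edgeR), the library that stood apart. Without that library Col5a3 was called higher too (0.85, adjusted p = 8.94e-06 by edgeR, against 0.49 and 0.161 with it). The 7 osteoblast markers summed to 374 to 403 CPM in hypoxic and 65.3 to 147 CPM in normoxic libraries. Hypoxia response genes summed to 7990 to 9130 CPM in hypoxic and 1030 to 1190 CPM in normoxic libraries. Adipocyte markers were also higher under hypoxia, at 54.7 to 59.6 against 7.77 to 11.6 CPM, and smooth muscle markers (2210 to 2490 against 3650 to 5180 CPM) and tendon markers (12.9 to 15.2 against 29.2 to 45.8 CPM) lower. Chondrocyte markers stood at 598 to 640 CPM against 182 to 197 in normoxic replicates 1 to 3 and 1400 in replicate 4. The part of these markers in the result was not tested.

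The smooth muscle condition had the largest differences between oxygen levels. Col3a1 was lower by 24.6-fold at 0.5% O2 (-4.62 ± 0.08), Col1a1 by 14-fold (-3.81 ± 0.15), Col5a2 by 6.97-fold (-2.80 ± 0.10), Col1a2 by 6.33-fold (-2.66 ± 0.10) and Col5a1 by 3.92-fold (-1.97 ± 0.13). Serpinh1 fell by 0.56 on the log2 scale (SE 0.13, adjusted p = 0.00109 by edgeR), and Col5a3 was not called (-0.17 ± 0.19, adjusted p = 0.414 by edgeR). So 6 of 7 genes fell, against 35.4% called higher and 40.2% called lower among all genes. With mitochondrial genes left out before scaling, Col3a1 stood at -4.62 and Col1a1 at -3.81. On library size alone the median of all genes moved from -0.12 to -1.49, and against that shift Col3a1 (-5.99) and Col1a1 (-5.18) were still lower, while Col5a3 was at -1.54, where it became called (adjusted p = 2.21e-06 by edgeR), and Serpinh1 at -1.93. Smooth muscle markers were far apart between the same libraries, at 3580 to 4040 CPM against 95.1 to 119 CPM under hypoxia, and Cnn1, Myh11 and Lmod1 were below 1 CPM on average in the hypoxic ones. Hypoxia response genes summed to 35800 to 38600 CPM there against 559 to 601 CPM, and neural crest markers to 2980 to 3710 against 836 to 1020 CPM. Chondrocyte markers were lower under hypoxia (29.1 to 36.3 against 109 to 138 CPM). So were skeletal muscle markers (1.1 to 1.65 against 8.97 to 11.3 CPM) and tendon markers (33.2 to 40.9 against 43.2 to 50.6 CPM). Neuron and glia markers were higher (9.73 to 16.3 against 6.07 to 7.43 CPM). The part of these changes in the fall of collagen RNA was not tested.

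Whether the change on differentiation itself depended on oxygen was tested with an interaction term, the hypoxic change minus the normoxic change. In the smooth muscle condition it was negative and called for all 7 genes, from Serpinh1 (-0.51 ± 0.15, adjusted p = 0.0058 by edgeR) to Col3a1 (-4.72 ± 0.11, adjusted p = 5.79e-19 by edgeR), where 34.9% of all genes were called higher and 35.5% lower. The hypoxic smooth muscle libraries had summed smooth muscle markers of 95.1 to 119 CPM, below the 191 to 195 CPM of hypoxic proliferating libraries. In the chondrocyte condition 5 were called, all negative: Col5a3 (-1.60 ± 0.48), Col5a1 (-0.92 ± 0.09), Col1a1 (-0.56 ± 0.11), Col3a1 (-0.38 ± 0.12) and Col1a2 (-0.34 ± 0.10). Col5a2 (-0.23 ± 0.13) and Serpinh1 (0.21 ± 0.11) were not called. Here 21.6% of genes were called higher and 21.9% lower. Of these 5 calls, Col1a1 and Col1a2 were lost in a single fit of all 28 libraries (adjusted p = 0.0513 and 0.064 by edgeR) and Col5a3 with limma-voom (adjusted p = 0.0751). Chondrocyte levels of these genes were not called different between oxygen levels, and the proliferating levels of Col5a3, Col5a1, Col1a1 and Col1a2 were higher under hypoxia. In the osteoblast condition all 7 estimates were negative and 2 were called, Col5a3 (-2.05 ± 0.34) and Col5a1 (-1.22 ± 0.09), with 28.9% of genes called higher and 25.3% lower. Without hypoxic proliferating replicate 3 the Col3a1 term in the chondrocyte condition missed the threshold (adjusted p = 0.0546 by edgeR), and without hypoxic chondrocyte replicate 1 that of Serpinh1 passed it (0.30, adjusted p = 0.018 by edgeR). Without normoxic proliferating replicate 4 the osteoblast term of Col3a1 passed (-0.33, adjusted p = 0.0313 by edgeR). The osteoblast terms of Col1a1 (0.02), Col1a2 (0.05) and Serpinh1 (0.13) turned positive, and were not called, without normoxic osteoblast replicate 4.

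Ratios of counts within a library do not depend on how libraries are scaled, and 5 of them were compared in 10 pairs of groups. The groups did not overlap in 35 of the 50 comparisons. With 4 libraries against 4 or 3 the exact permutation test (two-sided) cannot go below 0.0286, and with 3 against 3 not below 0.1, and after Benjamini-Hochberg adjustment over the 50 the smallest p was 0.068, so none passed 0.05. The values are given as a description. Serpinh1 counts were 0.111 ± 0.00281 (SD, n = 4) of the summed counts of the 6 chains in normoxic proliferating, 0.0261 ± 0.000943 in normoxic chondrocyte and 0.297 ± 0.072 (n = 3) in hypoxic smooth muscle libraries. The ratio was lowest in the 2 chondrocyte groups, where collagen RNA was highest, and highest in hypoxic smooth muscle, where collagen RNA was lowest. Since collagen counts are the denominator and Serpinh1 spanned a narrow range, this inverse order is built into the ratio. Between oxygen levels the Serpinh1 ratio was 1.52-fold lower in hypoxic proliferating libraries (exact permutation p = 0.0286, adjusted 0.068), 1.41-fold lower in hypoxic osteoblast (p = 0.0286, adjusted 0.068) and 1.03-fold apart in chondrocyte libraries (p = 0.571). In smooth muscle libraries it ran the other way, at 0.297 under hypoxia against 0.0507 ± 0.00537 (n = 4), 5.77-fold higher without overlap (exact permutation p = 0.0286, adjusted 0.068).

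The balance of the collagen I chains is given in the same way. Col1a1 counts were 0.495 ± 0.0116 of those of Col1a2 in normoxic proliferating libraries, 1.11 ± 0.0458 in normoxic chondrocyte libraries and 0.288 ± 0.00858 in hypoxic smooth muscle libraries, and no libraries of these groups overlapped. Col3a1 relative to Col1a1 was lower at 0.5% O2 in all 4 conditions by group means, 0.225 against 0.359 in proliferating, 0.174 against 0.245 in chondrocyte, 0.374 against 0.629 in osteoblast and 0.304 against 0.540 in smooth muscle libraries. The libraries overlapped in the osteoblast condition only, through normoxic osteoblast replicate 4 alone (0.421, against 0.672 to 0.734 in replicates 1 to 3 and 0.284 to 0.468 under hypoxia). Col5a3 relative to Col5a1 was higher at 0.5% O2 by group means in all 4 conditions, and reached 0.0438 ± 0.0106 in hypoxic smooth muscle against 0.0123 ± 0.00214 in normoxic. Again the osteoblast libraries overlapped, through normoxic replicate 4 alone (0.0103, against at most 0.00461 in replicates 1 to 3), and the other conditions did not.

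**Figure D5:**
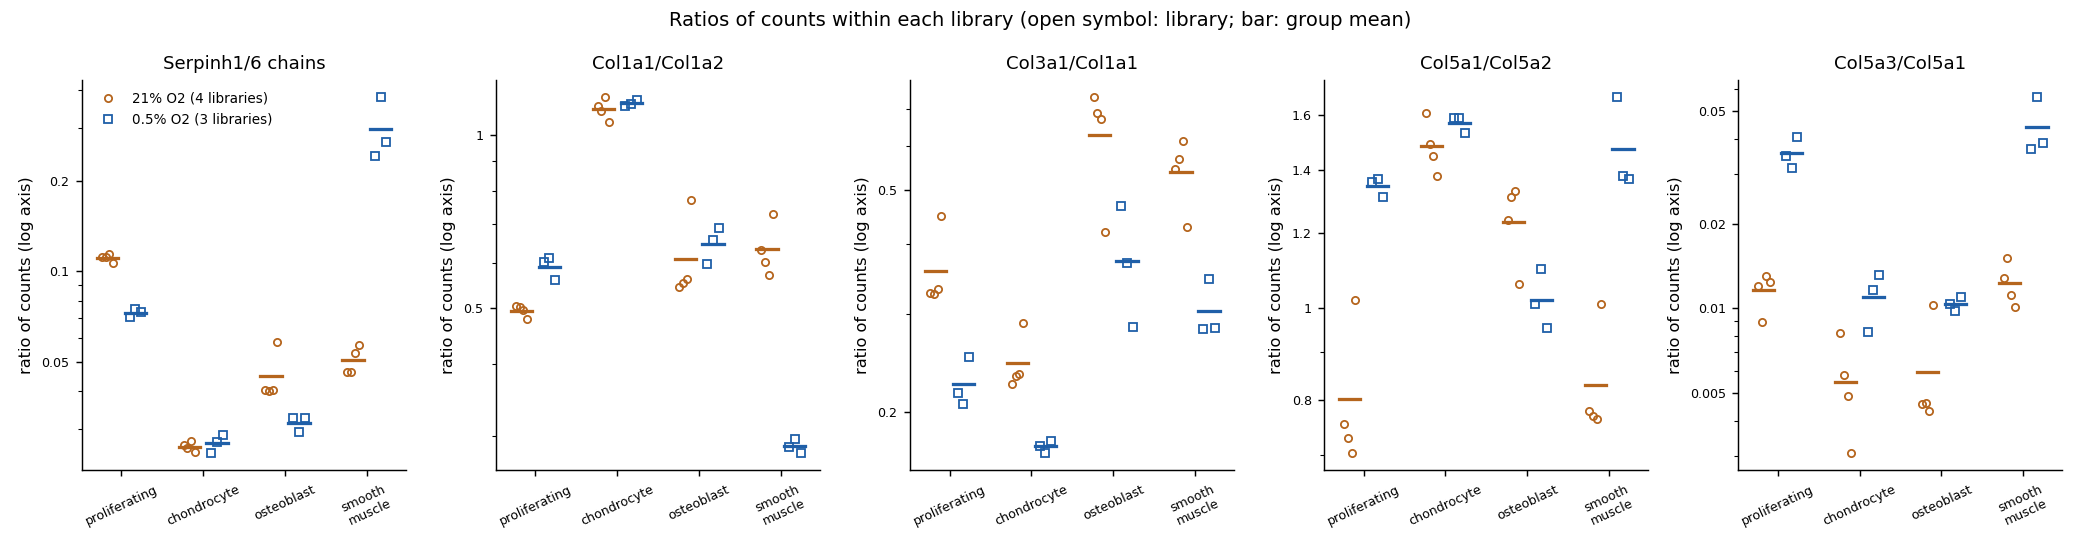
The 5 panels plot ratios of counts on log axes for each library (open symbols) with the group mean (bar), circles at 21% O2 and squares at 0.5% O2. In the first panel the hypoxic smooth muscle libraries lie between 0.242 and 0.379 and the chondrocyte libraries between 0.025 and 0.0285.

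The genes of collagen synthesis around the 7 were then described by 9 lists, giving the 2 called genes of each list with the largest change. The lists were chosen with earlier results of these data known. A gene with 0 or almost 0 counts in a group passed the filter on low counts only through the other group. Its direction was therefore fixed by the filter, and the list counts and medians include such genes. Among the genes named below these are Colgalt2, Fmod, Col2a1 and Itga11, where such counts are given. The number of other such genes was not determined. In normoxic chondrocyte against proliferating libraries, where 37.7% of all tested genes were called higher and 37.2% lower, 18 of 18 tested genes of collagen modification and folding rose (median log2 fold change 2.37, against -0.003 over all genes). P4ha3, a prolyl hydroxylase subunit, rose by 5.58 ± 0.12. Colgalt2, a collagen galactosyltransferase, went from 0 counts to 21.0 ± 8.48 CPM (SD, n = 4). Colgalt2 could therefore only rise, and its part in the 18 of 18 is no evidence of direction. Among the cross-linking enzymes 5 of 5 rose (median 2.31), with Lox at 6.66 ± 0.12 and Loxl2 at 2.80 ± 0.15. Of the fibril-associated regulators 9 of 10 rose and 0 fell (median 5.18), with Postn, encoding periostin, at 9.01 ± 0.16. Fmod, which encodes fibromodulin, had a single count in all proliferating libraries together and 1820 ± 72.8 CPM in chondrocyte libraries.

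All 4 tested genes among the other fibrillar collagens rose in the same comparison, where Col11a1 reached 5410 ± 765 CPM from 3.26 ± 2.36 and Col2a1 3510 ± 2340 CPM from 2 counts. Procollagen export genes rose in 8 of 9 cases and fell in 1 (median 0.97), with Sec24d, a coat subunit of export vesicles, at 1.66 ± 0.08 and Mia3, encoding the procollagen export receptor TANGO1, at 1.62 ± 0.07. Of procollagen processing enzymes 5 of 6 rose and 1 fell (median 2.62), Tll1 by 10.45 ± 0.16 and Adamts2, the amino-propeptidase, by 5.64 ± 0.17. Collagen receptors rose in 7 of 8 cases (median 2.72), where Itga11 went from 2 counts to 636 ± 64.2 CPM and Itga1 rose by 7.42 ± 0.37. All 8 tested regulators of collagen genes rose (median 2.32), including Creb3l1, a factor that drives secretory genes, at 8.78 ± 0.27 and Tgfb2 at 4.58 ± 0.17. In proline metabolism 3 of 5 rose and 2 fell (median 0.57), which is nearer to the shares over all genes. Prodh, which breaks proline down, fell (-4.94 ± 0.37), and Pycr1, which makes it, rose by 2.03 ± 0.16.

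The same lists were counted in proliferating cells at 0.5% against 21% O2, where 33.1% of all tested genes were called higher and 32.3% lower. The counts for processing enzymes, other fibrillar collagens and proline metabolism were near those shares. In collagen modification 10 of 17 tested genes rose and 3 fell (median 0.37, against 0.01 over all genes), with P4ha2 at 4.06 ± 0.06 and Plod2, the lysyl hydroxylase of telopeptides, at 3.86 ± 0.06. In cross-linking 4 of 5 rose and 1 fell (median 1.19), with Lox at 3.48 ± 0.06 and Loxl2 at 2.43 ± 0.06. For fibril-associated regulators it was 6 of 8 up and 1 down (median 0.52), with Col12a1 at 2.31 ± 0.18 and Tnxb at 1.8 ± 0.38. Receptors gave 6 of 7 up and 1 down (median 0.94), where Itga11 went from 2 counts in all normoxic libraries to 0.944 ± 0.145 CPM (SD, n = 3) and Itga2 rose by 4.09 ± 0.24. Regulators gave 6 of 8 up and 2 down (median 1.04), with Creb3l1 at 2.04 ± 0.33 and Larp6, which binds collagen mRNA, at 1.92 ± 0.46. Export genes were split, 5 of 9 up and 3 down (median 0.26), with Sec23a at 0.75 ± 0.12 and Trappc2 at -0.66 ± 0.21, the latter not called without normoxic proliferating replicate 2 (adjusted p = 0.0523 by edgeR). Of processing enzymes 1 of 5 rose, Adamts2 (1.21 ± 0.25), and 1 fell, Bmp1 (-0.35 ± 0.06). Of the other fibrillar collagens 1 of 3 tested rose, Col11a2 (1.57 ± 0.45), which was not called in a single fit of all 28 libraries (adjusted p = 0.339 by edgeR). Proline genes were split, 2 of 5 up and 2 down, with Prodh at -1.99 ± 0.14 and Pycr1 at 1.25 ± 0.17.

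In smooth muscle libraries at 0.5% against 21% O2 the list counts stand beside 35.4% of all tested genes called higher and 40.2% called lower. Receptors fell in 8 of 8 cases (median -1.60, against -0.12 over all genes), with Itga1 at -5.41 ± 0.29 and Itga10 at -3.29 ± 0.45, and cross-linking enzymes in 5 of 5 (median -1.67), with Loxl2 at -2.90 ± 0.11 and Loxl1 at -2.14 ± 0.11. Fibril-associated regulators fell in 7 of 10 and rose in 3 (median -1.88), with Postn at -6.69 ± 0.10 and Fmod falling from 37.4 ± 12.7 CPM to 0 counts. Collagen modification was divided evenly, 7 of 17 up and 7 down (median -0.13), with P4ha1, a hydroxylase subunit, up by 3.94 ± 0.08 and Fkbp14, a folding isomerase, down (-4.87 ± 0.23). Export genes fell in 6 of 9 and rose in 3 (median -1.09), Mia3 at -2.06 ± 0.10 and Sec24d at -1.49 ± 0.10. Regulators fell in 5 of 8 and rose in 2 (median -1.16), Tgfb2 at -3.73 ± 0.20 and Creb3l1 at -2.90 ± 0.18. Of the other fibrillar collagens 3 of 4 fell, Col11a1 by the most (-8.02 ± 0.12) and Col2a1 from 1.75 ± 0.237 CPM to 2 counts, the latter not called in a single fit of all 28 libraries (adjusted p = 0.228 by edgeR). Among processing enzymes 2 of 6 fell and 1 rose, below the share over all genes, led by Tll1 (-4.30 ± 0.32) and Adamts2 (-1.70 ± 0.16). Proline genes fell in 3 of 5, with Pepd at -1.64 ± 0.13 and Pycr1 at -1.63 ± 0.28.

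Likeness of pattern was described by Pearson's r of log2 CPM over the 28 libraries, among 13398 other genes. The points share libraries and fall into 8 groups, so no p is given. Col1a1 and Col1a2 were each other's nearest gene (r = 0.996), and Col5a2 was second for both (0.989 and 0.990). The third places were held by Itgb3, an integrin subunit, for Col1a1 (0.979) and Mdfic for Col1a2 (0.980). Col5a2 had 3 collagen chains in its first places, Col1a2, Col1a1 and Col5a1. Nearest to Col5a1 were Lman1, a cargo receptor of the secretory pathway (0.986), Mdfic (0.983) and Col5a2 (0.982). Col3a1 was nearest to the Notch ligand gene Jag1 (0.989), Tln2 (0.981) and Slc35f6 (0.981), with Col1a2 in place 9. Serpinh1 was nearest to Fkbp10, another chaperone of procollagen (0.982), Acvr1 (0.975) and Lman1 (0.974), and the closest of the other 6 genes was Col5a1 in place 10. Col5a3 stood off, with Fyn (0.938), Gtpbp2 (0.932) and Fbln2 (0.929) first and Col5a1 (0.850) in place 87 as its closest member.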

How the data were processed

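RNA sequencing of polyadenylated RNA gave 28 libraries in 8 groups, and every library was placed in its group by its labels. The deposited table holds raw read counts per Ensembl gene identifier, made by the authors from aligned reads. HISAT2 2.0.5, StringTie 1.3.3b, featureCounts 1.5.0-p3 and build mm10 are named in the submitters' processing notes, while the annotation and the strand setting of the counting are not given in the sources used here. Of the 10 deposited comparison tables only the gene symbols were used, and 70 columns of normalised values in them were left out. Without a known strand setting, reads of Col5a1 and the 2 genes overlapping it on the other strand (17679 counts, against 2537147 for Col5a1) may not have been told apart.

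The counts were scaled by TMM and tested with edgeR 4.0.16 (quasi-likelihood, two-sided, R 4.3.3) on the libraries of each pair of groups, or of 4 groups for an interaction. Genes were kept by filterByExpr (at least 10 counts, total at least 15), p-values were adjusted by Benjamini-Hochberg over all genes kept, and a call needed an adjusted p under 0.05. Likeness used log2 CPM with a prior count of 2. Ratios of counts (with 0.5 added) were compared by exact permutation, two-sided, in Python 3.11.15. The test scripts were tested on simulated data.

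The 7 genes are named in every comparison. From each pathway list the 2 genes with the largest called change are named, and for each of the 7 the 3 genes most like it. Members and lists were chosen with earlier results of these data known. Alternatives were library size alone, RLE size factors, no filter, at least 10 counts in every library, limma-voom (limma 3.58.1), DESeq2 1.42.0, one fit of all 28 libraries, a replicate block, mitochondrial genes left out, each library left out in turn and, chosen after seeing the data, replicates 1 to 3 alone. Pairs of libraries within a group were checked for duplicates by the mean chi-square per gene of their counts. Its smallest value was 2.9, in the normoxic osteoblast group, so no such pair had the same counts. Pairs between groups were not checked.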

Additional observations from a re-analysis of the deposited data

Results flagged for a closer look

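Of 28 tests of a single library against its normoxic group of 4, 9 found a library set apart from the other 3 (by Dixon's test of the gap to the nearest library), and 7 of the 9 were in replicate 4. Chance sets apart about 5% of groups in a single test. The 28 tests are not independent, because the same libraries serve genes that vary together, so the 9 are not weighed against that rate. In normoxic osteoblast replicate 4 the high values were 9281 CPM for Col1a1, 12030 for Col1a2, 19.06 for Col5a3 and 1684 for Serpinh1. Normoxic smooth muscle replicate 4 was high in Serpinh1 (1034 CPM). Normoxic proliferating replicate 4 was high in Col3a1 (612.5 CPM) and low in Col5a2 (318.1 CPM). The other 2 were a high Col1a2 in normoxic chondrocyte replicate 2 (38260 CPM) and a low Col5a3 in normoxic proliferating replicate 2 (2.945 CPM).

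The change on differentiation differed between oxygen levels, by the interaction test in edgeR, in 14 of 21 cases, each given as the hypoxic minus the normoxic log2 fold change. All of these tests share the same proliferating libraries. Summed smooth muscle markers were 95.1 to 119 CPM in hypoxic smooth muscle libraries, below the 191 to 195 CPM of hypoxic proliferating ones, so that name is only the culture condition. In the smooth muscle condition the values were -4.58 for Col1a1, -3.18 for Col1a2, -4.72 for Col3a1, -2.87 for Col5a1, -2.92 for Col5a2, -2.71 for Col5a3 and -0.51 for Serpinh1, where 34.9% of all genes were called higher and 35.5% lower. In the chondrocyte condition they were -0.56 for Col1a1, -0.34 for Col1a2, -0.38 for Col3a1, -0.92 for Col5a1 and -1.6 for Col5a3, beside 21.6% higher and 21.9% lower. In the osteoblast condition they were -1.22 for Col5a1 and -2.05 for Col5a3, beside 28.9% higher and 25.3% lower.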

How the results depend on the processing

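Of 158 results with a test, 158 kept direction and call with RLE size factors or without mitochondrial genes, 156 with limma-voom or no filter, 155 with DESeq2, 153 with library size alone and 151 in one fit of all 28 libraries. The 7 genes called between oxygen levels in the chondrocyte condition numbered 0, but 1 with library size alone, 1 with no filter, 1 with limma-voom, 2 in one fit of all 28 libraries, 3 with DESeq2 and 0 to 1 when single libraries were left out (1 without normoxic chondrocyte replicate 1). Over all genes 3157 were called there, and 3050 (one fit) to 3598 (DESeq2) under the first 5 of these settings. Interaction calls went from 5 to 3 in the chondrocyte condition in one fit of all 28 libraries, where Col1a1 and Col1a2 were lost, and from 2 to 4 in the osteoblast condition with replicates 1 to 3 alone. Calls over all genes moved the same way, from 6654 of 15310 to 5739 of 16540 in the former and from 8394 of 15486 to 9550 of 15339 in the latter.

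Directions turned only in values that were not called. Between oxygen levels, Serpinh1 in proliferating cells (-0.0087) was 0.0087 with at least 10 counts in every library and -0.052 to 0.0022 with single libraries left out. Col5a1 in the chondrocyte condition (0.0062) was -0.069 with library size alone, -0.0458 with replicates 1 to 3 alone and -0.0458 to 0.0548 with single libraries left out. Serpinh1 in the osteoblast condition (-0.1895) was 0.0719 with replicates 1 to 3 alone and -0.2785 to 0.0719 with single libraries left out. The osteoblast interactions of Col1a1 (-0.2013), Col1a2 (-0.0244) and Serpinh1 (-0.1395) were 0.0426, 0.0511 and 0.1525 with replicates 1 to 3 alone, the last being called there (adjusted p = 0.0476 by edgeR). With single libraries left out they ranged from -0.267 to 0.0222, from -0.0527 to 0.0459 and from -0.2234 to 0.1308. The cause was not tested.

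Replicate numbers are shared by the groups, but deviations from the group means correlated at only -0.239 to 0.118 between same-numbered libraries, and in 0 of 12 comparisons were all pairs over 0.1, so the numbers were not used as a pairing. With the number as a replicate block, Col5a1 between oxygen levels in the chondrocyte condition was -0.0437 and Serpinh1 in the osteoblast condition 0.0753, and 2 calls were gained, Col3a1 in proliferating cells (0.24) and Col5a3 in the osteoblast condition (0.86). Limma-voom lost the chondrocyte interaction of Col5a3 (adjusted p = 0.0751). Ratios without overlap numbered 35, and 43 with replicates 1 to 3 alone. Low counts limit Col5a3, and there is no hypoxic replicate 4.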
